A study of Rattus norvegicus with 40 samples.

Results

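DNA replication genes were followed in rat insulin-producing INS-1E cells exposed to inflammatory cytokines. Of 36 listed genes, matched by gene symbol in the array annotation, 32 were present among the 16587 genes measured. Mcm4, Cdc45, Rrm1 and Rrm2 were not analysed here. The genes were listed by known function, with earlier results of these data known, and each of the 32 genes was read by a single probe set.

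INS-1E is a line grown from a rat insulinoma, so unlike most adult beta cells it divides in culture, and all samples came from this 1 line, labelled INS1. Control cells were kept in medium alone (15 arrays), and cytokine cells received 10 units/ml of human IL-1 together with 100 units/ml of murine IFN-γ, both recombinant (25 arrays). Both arms were sampled at 13 times, namely 0, 1, 2, 4, 6, 8, 10, 12, 24, 36, 48, 60 and 72 h, the control arm having 2 arrays at 0 h, 2 at 1 h and 1 at the remaining 11 times, and the cytokine arm 1 array at 10 h and 2 otherwise. A treatment tag of the cytokine arrays names IFN-beta in place of IL-1 and the extraction text speaks of islets, whereas the titles, treatment text and design give the cell line with IL-1 and IFN-γ, which were followed.

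Values are log2 signals, so a difference of 1 is a doubling, and the arrays had medians between 6.54 and 6.62. By mean level the beta cell genes ran from percentile 64.24 (Nkx6-1) to 100 (Ins1) of all genes, with Ins1, Ins2, Iapp and Slc2a2 at or above 99.7. Leukocyte genes ran from percentile 10.24 (Itgam) to 28.99 (Cd14), and exocrine genes from 18.29 (Prss1) to 27.06 (Krt19). Stromal and endothelial genes reached 52.26 (Col1a1), and other islet endocrine genes 78.83 (Gcg). Every control array after 1 h carries replicate number 1. Part of each difference after 1 h, except at 10 h, thus compares replicate 2 cytokine arrays with replicate 1 control arrays. In 12 of 14 groups with both numbers, the median replication gene was lower in replicate 2 than in replicate 1. Over the 14 groups its log2 difference ran from -0.25 to 0.09, against -0.04 to 0.01 for the median of all genes. Values from replicate 1 arrays alone are therefore given beside the results, and the tests on them used an additive model of time and treatment. In whole-culture RNA, fewer cells in S phase and less mRNA per cell cannot be told apart.

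Copying of the genome starts at origins, where Cdc6 and Cdt1 load the ring-shaped MCM helicase in G1 and where Cdc45, Mcm10 and the GINS complex later switch it on. Polymerase alpha with primase lays down primers, polymerases epsilon and delta extend them, and PCNA, a sliding clamp placed by the RFC clamp loader, holds the polymerases on DNA. Fen1 and Lig1 process and join the fragments of the lagging strand, and Tyms makes thymidylate. Cyclin E, encoded by Ccne1 and Ccne2, drives entry into S phase, and E2F1 belongs to the transcription factor family that switches on many of these genes as cells leave G1.

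The replication genes lay below their controls at 24 and 36 h of cytokine exposure and close to them again at 60 and 72 h. The median cytokine minus control difference over the 32 genes started at 0.04 (0 h) and 0.03 (1 h) and passed 0.00 (2 h) and -0.13 (4 h). It stood between -0.10 and -0.15 from 6 to 10 h and at -0.22 at 12 h. It was lowest at 24 h (-0.38, with 31 of 32 genes below 0) and then moved to -0.28 (36 h), -0.15 (48 h), -0.02 (60 h) and 0.00 (72 h). The median over all genes stayed between -0.05 and 0.00 at these times. In replicate 1 arrays alone the median was -0.33 at 24 h, with 32 of 32 genes below 0, and 0.13 at 72 h, with 8 of 32 below 0. The difference was lowest at 24 or 36 h for 22 of the 32 genes (68.8%), against 17% of all genes.

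**Figure D1:**
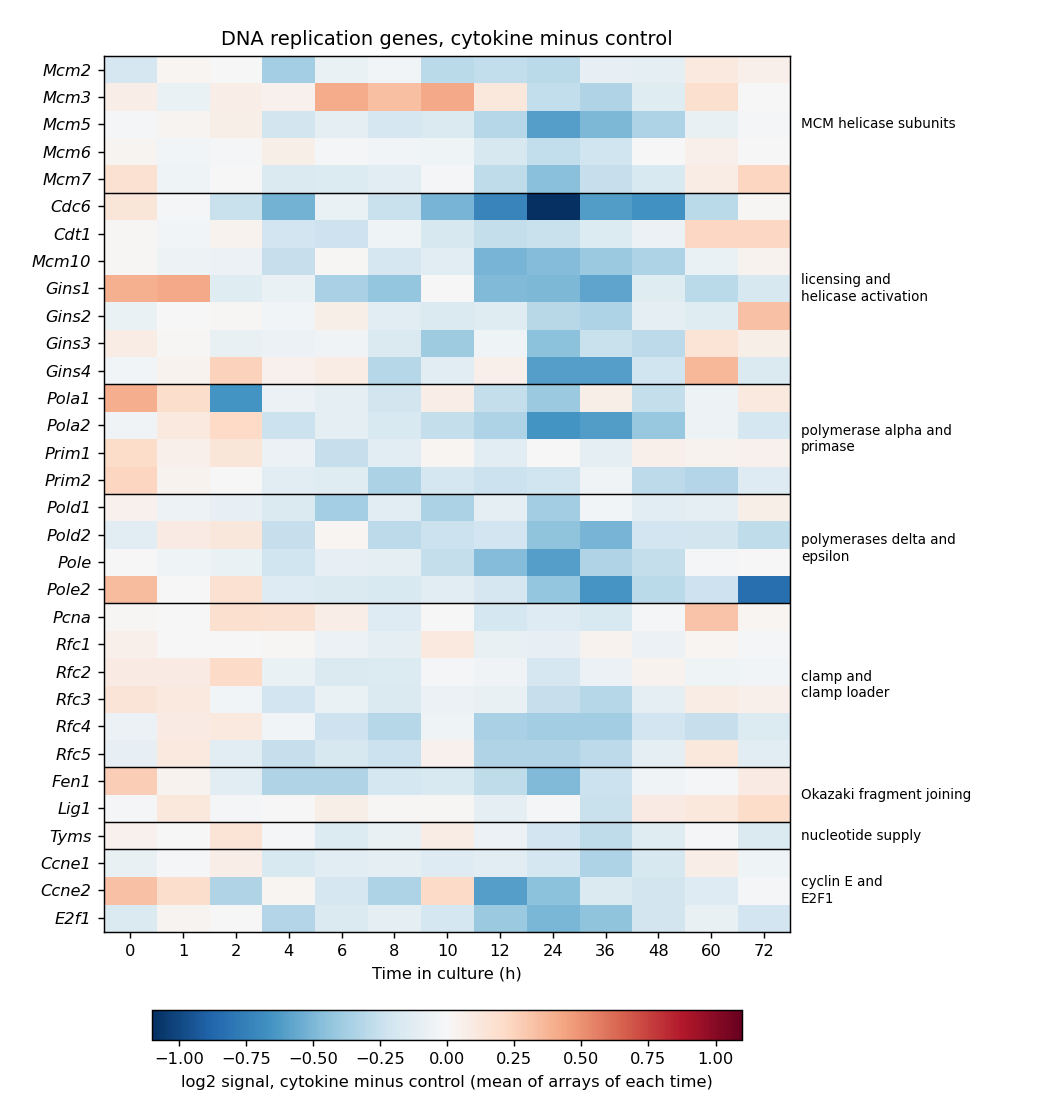
Cytokine minus control difference in log2 signal for the 32 replication genes (rows, grouped by role) at 13 times (columns), blue for lower and red for higher with cytokines. The columns at 24 and 36 h are blue in nearly every row, with Cdc6 the darkest at -1.11, while Mcm3 is red from 6 to 10 h.

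Differences were tested with limma for windows of time, over all 16587 genes, and a gene was called where its p-value, adjusted by Benjamini-Hochberg, was under 0.05. At 0 h, where the cytokine arrays (n = 2) serve as a background against control arrays (n = 2), limma called 0 of 32 replication genes and 0% of all genes. An unadjusted p under 0.05 was reached by 2 replication genes, against 556 of 16587 genes, 326 of them higher. The 2 were Pole2 at 0.35 and Fen1 at 0.27, both toward higher values in the cytokine arm. At 1 to 4 h limma called 0 of 32, against 1.44% of all genes called higher and 0.0482% called lower. No gene had groups that did not overlap, against 0.5% of all genes wholly lower and 1.13% wholly higher. Of the replication genes Cdc6 alone had an unadjusted p under 0.05, at -0.26 (SE 0.12, limma adjusted p = 0.516). Over all genes 728 lay lower and 793 higher at that threshold.

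At 6 to 12 h 31 of 32 replication genes lay below 0, with a median of -0.16 against -0.03 for all genes, but only Cdc6 was called. That is 3.12% of the replication genes, against 4.11% of all genes called lower and 4.94% called higher. In Pold1 and Fen1 every cytokine array lay below every control array, as in 4.38% of all genes, with differences of -0.23 and -0.24 (limma adjusted p = 0.0535 and 0.0561). Cdc6 fell by 0.39 (SE 0.12, limma adjusted p = 0.0367). Its levels were 7.57, 8.01, 7.91 and 8.10 in the control arrays at 6, 8, 10 and 12 h. With cytokines they were 7.56 and 7.44 at 6 h, 7.86 and 7.67 at 8 h, 7.40 at 10 h and 7.47 and 7.29 at 12 h. The arms thus met at 6 h and stood apart at 10 and 12 h. The call was lost in replicate 1 arrays alone (-0.33, limma adjusted p = 0.328), in the additive model (0.0539) and without any 1 of 7 arrays, namely control 8, 10 or 12 h, cytokine 10 h, or replicate 2 of cytokine 6, 8 or 12 h.

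Mcm3, which encodes an MCM subunit, was the exception to the downward direction in this window. Its differences were 0.41 at 6 h, 0.33 at 8 h, 0.42 at 10 h and 0.12 at 12 h. Control levels were 9.54, 9.66, 9.63 and 9.68 at these times, whereas the cytokine arrays read 10.08 and 9.82, then 10.24 and 9.74, then 10.05, and then 9.93 and 9.66. All 5 cytokine arrays from 6 to 10 h were thus above their control. The window difference of 0.32 (SE 0.12) had a limma adjusted p of 0.0996, but it was called in replicate 1 arrays alone at 0.45 (0.00812) and in the additive model at 0.31 (0.0457). The other MCM subunits ranged from -0.19 for Mcm5 to -0.07 for Mcm6.

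At 24 to 36 h limma called 6 of 32 replication genes lower and 0 higher. These 18.8% compare with 2.27% of all genes called lower and 2.91% called higher. All 32 lay below 0, from -0.86 for Cdc6 to -0.03 for Rfc1, with a median of -0.31 against -0.05 for all genes. Another 10 had an unadjusted p under 0.05 without passing the adjustment, which makes 16 in all. Over all 16587 genes 1623 lay lower and 1139 higher at that threshold. In 26 of the 32, every cytokine array (n = 4) lay below both control arrays, as it did in 19.8% of all genes. The window rests on 1 control array per time. Without control 24 h, which leaves 36 h alone, 0 genes were called and the median was -0.28, and without control 36 h only Cdc6 was called and the median was -0.38. Without replicate 2 of cytokine 24 h the count was 3, and in replicate 1 arrays alone it was 7, against 2.07% of all genes, made up of Cdc6, Pola2, Gins4 and Pole together with Pold2, Gins1 and E2f1.

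**Figure D2:**
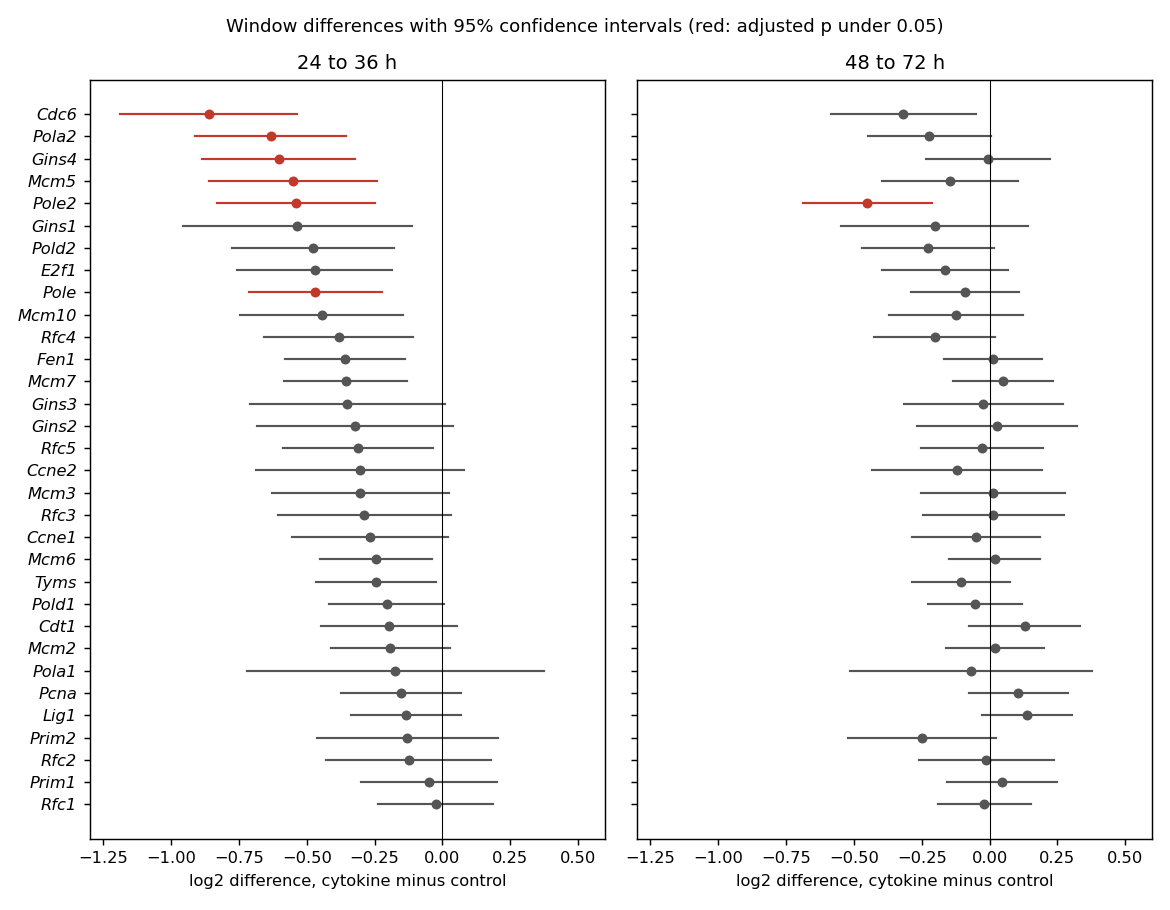
Log2 difference, cytokine minus control, of each replication gene at 24 to 36 h (left) and 48 to 72 h (right), with 95% confidence intervals from limma. Red marks genes called at an adjusted p under 0.05. All points on the left are below 0, and most on the right lie near it, Pole2 being called in both.

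Among the genes that load and activate the helicase, Cdc6 fell most, 1.82-fold (log2 -0.86, SE 0.16, limma adjusted p = 0.00159). Control arrays read 8.07 at 24 h and 7.66 at 36 h, and cytokine arrays 6.84 and 7.09 at 24 h and 6.88 and 7.21 at 36 h, so the groups did not overlap. Gins4, a GINS subunit, fell 1.52-fold (log2 -0.60, SE 0.13, limma adjusted p = 0.00908). Its control levels were 7.92 and 7.70, against 7.22 and 7.40 at 24 h and 6.99 and 7.20 at 36 h with cytokines. The other GINS subunits had differences of -0.53 for Gins1, -0.32 for Gins2 and -0.35 for Gins3, none of them called. Mcm10 stood at -0.45 (limma adjusted p = 0.085), and Cdt1, the partner of Cdc6 in loading, at -0.20 (SE 0.12, 0.442).

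All 5 MCM subunits lay below 0, and they were not tested against each other. Mcm5 alone was called, at -0.55 (SE 0.15, limma adjusted p = 0.0318). It read 9.99 and 9.75 in control arrays at 24 and 36 h. With cytokines it read 9.34 and 9.43 at 24 h and 9.31 and 9.21 at 36 h, all below both controls. The call did not pass in replicate 1 arrays alone, where the difference was almost the same (-0.55, limma adjusted p = 0.0562). It was also lost when any 1 of the 6 arrays of this window was left out. Mcm7 had a difference of -0.36 (limma adjusted p = 0.0627), Mcm3 of -0.30 and Mcm2 of -0.19. Mcm6 read 10.67 and 10.57 in control arrays against 10.45, 10.34, 10.38 and 10.32 with cytokines, without overlap, a difference of -0.24 (95% confidence interval -0.45 to -0.04, limma adjusted p = 0.193).

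Of the polymerase genes, Pola2, the regulatory subunit of polymerase alpha, fell 1.55-fold (log2 -0.63, SE 0.13, limma adjusted p = 0.00577). Control arrays read 8.19 and 8.18 at 24 and 36 h, and cytokine arrays 7.46 and 7.60, then 7.63 and 7.50. The catalytic subunit gene Pola1 differed by -0.17 with a wide interval (-0.72 to 0.37), and the primase genes Prim1 and Prim2 by -0.05 and -0.13. Pole, the catalytic subunit of polymerase epsilon, fell by 0.47 (SE 0.12, limma adjusted p = 0.0206), from 8.71 and 8.58 to 8.11 and 8.10 at 24 h and 8.13 and 8.36 at 36 h. Pole2, its second subunit, fell by 0.54 (SE 0.14, limma adjusted p = 0.0262). It read 6.25 and 6.23 in control arrays against 5.99 and 5.66 at 24 h and 5.67 and 5.49 at 36 h. The Pole2 call did not pass in replicate 1 arrays alone (limma adjusted p = 0.0904). Pold2, a polymerase delta subunit, was just outside the threshold at -0.48 (limma adjusted p = 0.0599), and Pold1 stood at -0.21.

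Of the 6 clamp and clamp loader genes none was called by limma, although all lay below 0 and 2 had an unadjusted p under 0.05. Pcna differed by -0.15 (SE 0.11, limma adjusted p = 0.519), with 10.44 and 10.47 in control arrays and 10.27, 10.33, 10.21 and 10.40 with cytokines. Rfc1, the large loader subunit, differed by -0.03 (95% confidence interval -0.24 to 0.19) and its groups overlapped. The small subunits ranged from -0.12 for Rfc2 to -0.38 for Rfc4 (limma adjusted p = 0.109, and 0.0412 in the additive model). Fen1 had a difference of -0.36 (limma adjusted p = 0.0544), Lig1 of -0.13 and Tyms of -0.24 (0.237). E2f1 stood at -0.47 (SE 0.14, limma adjusted p = 0.0507), with 7.48 and 7.57 in control arrays against 6.89, 7.06, 7.01 and 7.26 with cytokines, all lower. The cyclin E genes had smaller differences, -0.27 for Ccne1 (limma adjusted p = 0.343) and -0.30 for Ccne2 (0.439). Ccne1 read 8.78 and 8.88 in control arrays and from 8.50 to 8.64 with cytokines, and Ccne2 read 8.54 and 8.26 against 7.92 to 8.29, the latter overlapping.

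**Figure D3:**
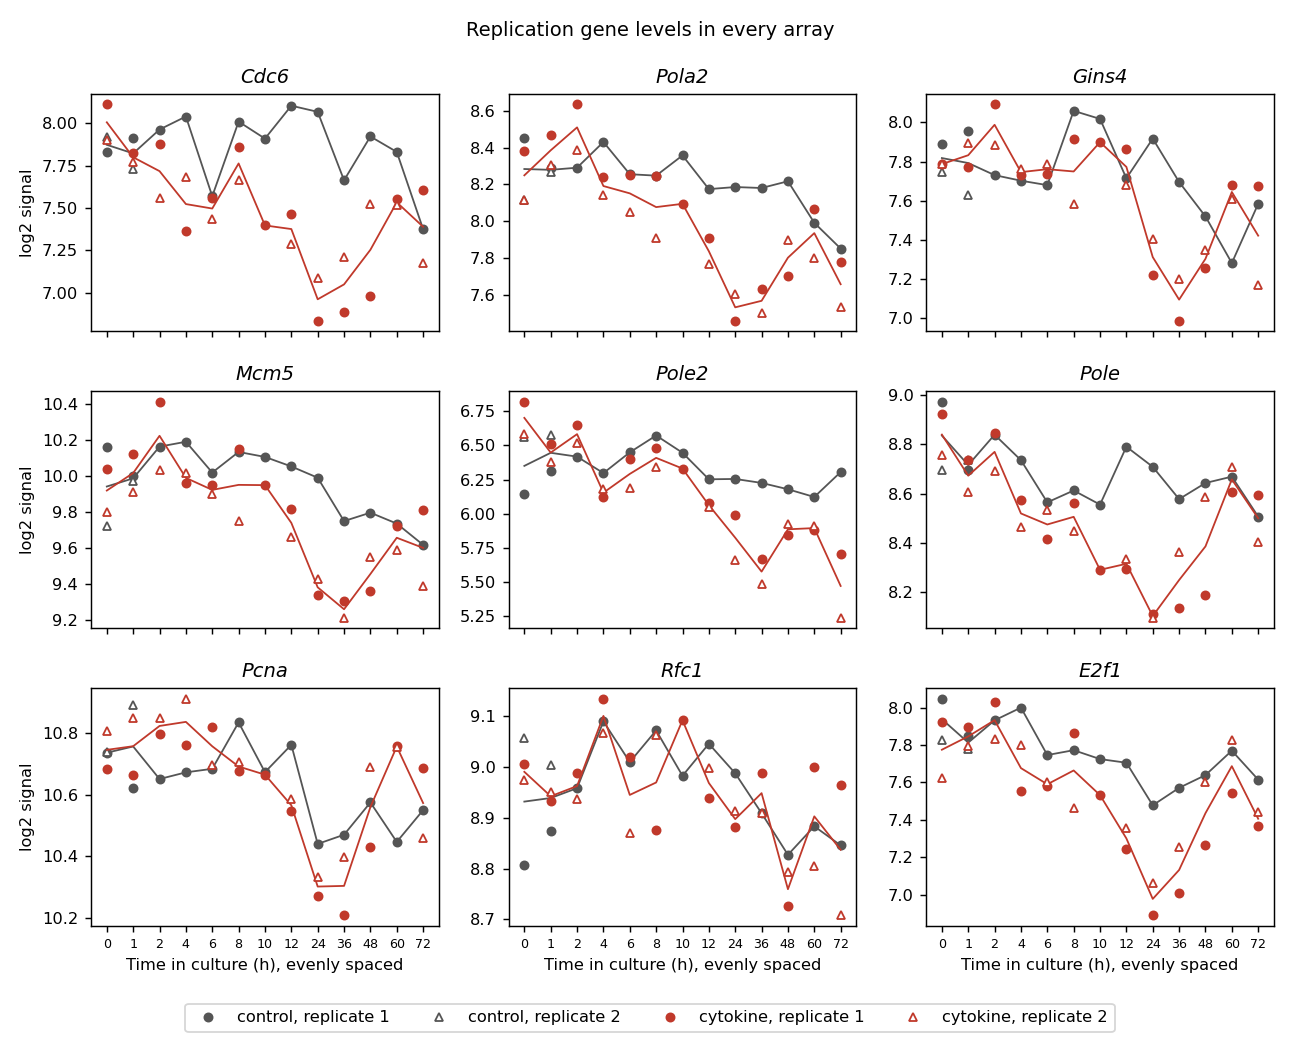
Log2 signal of 9 replication genes in each array (vertical axes, a different range in each panel) against time, with times evenly spaced. Filled circles are replicate 1, open triangles replicate 2, and lines join the means of each arm. Cytokine arrays (red) dip below control arrays (grey) at 24 and 36 h for Cdc6, Pola2, Gins4, Mcm5, Pole2, Pole and E2f1, while the arms of Rfc1 stay mixed.

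Since E2F factors bind many replication gene promoters, RefSeq promoter windows of the rat assembly GRCr8 (250 bases before to 50 after the start site taken for each gene) were searched on both strands for the E2F words TTTCCCGC, TTTCGCGC, TTTGCCGC and TTTGGCGC. Promoters were found for 28 of the 32 genes, and 14 of these (50%) held at least 1 word, against 3.23% of 13540 promoters of measured genes and 2.25% of all 27457. The start used lay within 100 bases of the outer edge of the annotated gene in 17 of the 28 windows, and 3.3 kb or more inside it in 3, namely Mcm10, Pold1 and Pole2. The share was 44.1% of 34 further replication genes, 25% of 16 G1 to S regulators and 3.7% of 27 mitosis genes. In all, 23 words were found and 17 started within 60 bases of the start used. Words on opposite strands overlapped in Mcm2, Mcm5, Mcm6 and Gins1. At 24 to 36 h the median difference was -0.29 for the 14 genes with a word and -0.29 for the 14 without, and 3 and 1 of them were called. This leaves out the 4 genes that had no window, Cdc6 (-0.86), Gins4 (-0.60), E2f1 (-0.47) and Ccne2 (-0.30), of which Cdc6 and Gins4 were called. Only exact words were counted, so a near match was read as no word. A match describes the letters only, and no binding was measured.

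The 4 called genes that have a promoter window are shown because they fell together while differing in these words, which are in capitals. Mcm5 (chr19:13488563-13488862, plus strand) holds an overlapping pair far upstream and another word at the start, Pole (chr12:52053613-52053912, minus strand) holds 1 near the start, and Pola2 (chr1:212680493-212680792, minus strand) holds none. Pole2 (chr6:93435312-93435611, minus strand) holds 1 near the start of its window, which lies 13.4 kb inside the annotated gene. Each is written 5′ to 3′ in the direction of transcription.
Mcm5: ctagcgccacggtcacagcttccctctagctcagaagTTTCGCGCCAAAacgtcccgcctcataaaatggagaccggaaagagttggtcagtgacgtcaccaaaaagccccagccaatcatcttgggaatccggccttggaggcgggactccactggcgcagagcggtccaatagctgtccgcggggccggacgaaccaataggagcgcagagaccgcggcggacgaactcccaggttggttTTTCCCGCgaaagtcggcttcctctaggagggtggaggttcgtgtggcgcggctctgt
Pole: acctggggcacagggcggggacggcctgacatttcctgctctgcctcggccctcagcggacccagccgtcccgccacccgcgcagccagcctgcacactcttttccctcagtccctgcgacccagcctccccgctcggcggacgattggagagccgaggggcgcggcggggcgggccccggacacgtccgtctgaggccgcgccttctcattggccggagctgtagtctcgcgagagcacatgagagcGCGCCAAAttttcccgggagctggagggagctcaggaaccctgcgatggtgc
Pole2: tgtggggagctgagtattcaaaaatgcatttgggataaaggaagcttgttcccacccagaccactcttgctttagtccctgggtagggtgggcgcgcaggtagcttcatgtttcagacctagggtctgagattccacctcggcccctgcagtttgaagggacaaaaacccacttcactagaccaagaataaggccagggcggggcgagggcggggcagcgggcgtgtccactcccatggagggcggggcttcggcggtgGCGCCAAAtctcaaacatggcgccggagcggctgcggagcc
Pola2: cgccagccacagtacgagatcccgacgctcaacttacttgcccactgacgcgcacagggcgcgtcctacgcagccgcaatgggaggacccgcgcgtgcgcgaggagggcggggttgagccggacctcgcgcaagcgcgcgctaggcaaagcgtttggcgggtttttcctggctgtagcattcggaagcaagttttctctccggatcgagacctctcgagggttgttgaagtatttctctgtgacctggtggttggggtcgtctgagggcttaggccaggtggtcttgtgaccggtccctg

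At 48 to 72 h the replication genes were near their controls. The median difference was -0.04 against -0.02 for all genes, 21 of 32 lay below 0, and the range ran from -0.45 for Pole2 to 0.14 for Lig1. Limma called 1 gene lower (3.12%) and 0 higher, against 1.33% and 2.37% of all genes. In Pole2 and Pold2 every cytokine array lay below every control array, as in 5.66% of all genes, and in no replication gene above them, as in 5.56%. The called gene was Pole2, which fell by 0.45 (SE 0.11, limma adjusted p = 0.0289). Its control arrays read 6.18, 6.12 and 6.31 at 48, 60 and 72 h. The cytokine arrays read 5.85 and 5.93, 5.88 and 5.91, and 5.70 and 5.24, all of them lower. The size rests in part on 72 h, where the difference was -0.83. Without control 72 h it was -0.26 (limma adjusted p = 0.581), and the call was also lost without control 48 h, without replicate 1 of cytokine 48 or 60 h, without replicate 2 of cytokine 72 h and in replicate 1 arrays alone (-0.39, 0.0581).

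Cdc6, Gins4 and Pcna stood at or above the control level at 60 or 72 h. The difference of Cdc6 went from -1.11 at 24 h to -0.67 (48 h), -0.30 (60 h) and 0.01 (72 h). In the control arrays Cdc6 read 7.92, then 7.83, then 7.38 over these times, and in the cytokine arrays 6.98 and 7.53, then 7.55 and 7.52, then 7.61 and 7.17. The cytokine mean rose from 7.25 at 48 h to 7.53 at 60 h. From 60 to 72 h both arms fell, the control array more than the cytokine mean, which reached 7.39. Gins4 went from -0.61 at 24 h to 0.36 at 60 h, where the control array read 7.28, its lowest, and the cytokine arrays 7.68 and 7.61. At 72 h Gins4 stood at -0.16. Pcna, at -0.14 at 24 h, stood at 0.31 at 60 h, with 10.45 in the control array and 10.76 and 10.75 with cytokines. At 72 h it stood at 0.02.

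The change between the windows was tested as the difference at 48 to 72 h minus that at 24 to 36 h. It was above 0 for 31 of 32 replication genes, with a median of 0.28 against 0.02 for all genes. Limma called 0 of them, against 0.00603% of all genes called higher and 0.0241% called lower. An unadjusted p under 0.05 was reached by 9 of 32, all of them upward, against 697 of 16587 genes upward and 466 downward. The largest were Gins4 at 0.60 (SE 0.17, limma adjusted p = 0.493) and Cdc6 at 0.54 (SE 0.20, 0.588). No single gene passed the test for a return toward control.

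The control arrays themselves changed over the culture. Control levels at 24 to 72 h (n = 5) lay below those at 1 to 12 h (n = 8) for 31 of 32 replication genes, with a median of -0.17 against 0.01 for all genes. Limma called 0 of 32, against 0.808% of all genes called lower (134) and 0.392% called higher (65), a split that became 104 and 109 after quantile normalization, while 15 had an unadjusted p under 0.05, all downward. The largest were Gins1 at -0.38 (SE 0.13, limma adjusted p = 0.177), Mcm10 at -0.36 (SE 0.10, 0.0692), and Pold2 and Mcm5 at -0.32. Over all genes 1400 of 16587 lay lower at an unadjusted p under 0.05. In replicate 1 arrays alone 5 replication genes were called lower, against 1.72% of all genes. Pcna read from 10.62 to 10.89 in the 8 early control arrays (median 10.68) and 10.44, 10.47, 10.57, 10.45 and 10.55 in the later ones, without overlap. Pcna and Mcm6 were the 2 genes wholly lower, against 2.06% of all genes, and 0 were wholly higher, against 0.482%.

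From 36 to 60 h the difference shrank while the cytokine arrays rose and the control arrays changed little. At 72 h the control array was lower again. Set against the mean of control arrays at 1 to 12 h, the median replication gene in control arrays stood at -0.08 (24 h), -0.12 (36 h), -0.14 (48 h), -0.15 (60 h) and -0.23 (72 h). In cytokine arrays of replicate 1 it was -0.37, -0.42, -0.34, -0.09 and -0.09 at the same times, and in those of replicate 2 it was -0.45, -0.41, -0.21, -0.20 and -0.31. The 4 cytokine arrays at 24 and 36 h were thus the lowest of all 40. At 72 h 1 cytokine array stood above the control array and 1 below it. Over all times, the change from 1 to 12 h to 24 to 72 h in cytokine arrays minus that in control arrays had a median of -0.05, and limma called 0 of 32 replication genes, against 0.965% of all genes called higher and 1.15% called lower. In that comparison 4 replication genes had an unadjusted p under 0.05, all lower, against 1115 of 16587 genes lower and 923 higher. Pole2 was the strongest at -0.40 (SE 0.12, limma adjusted p = 0.0848). These comparisons share control arrays with those above.

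**Figure D4:**
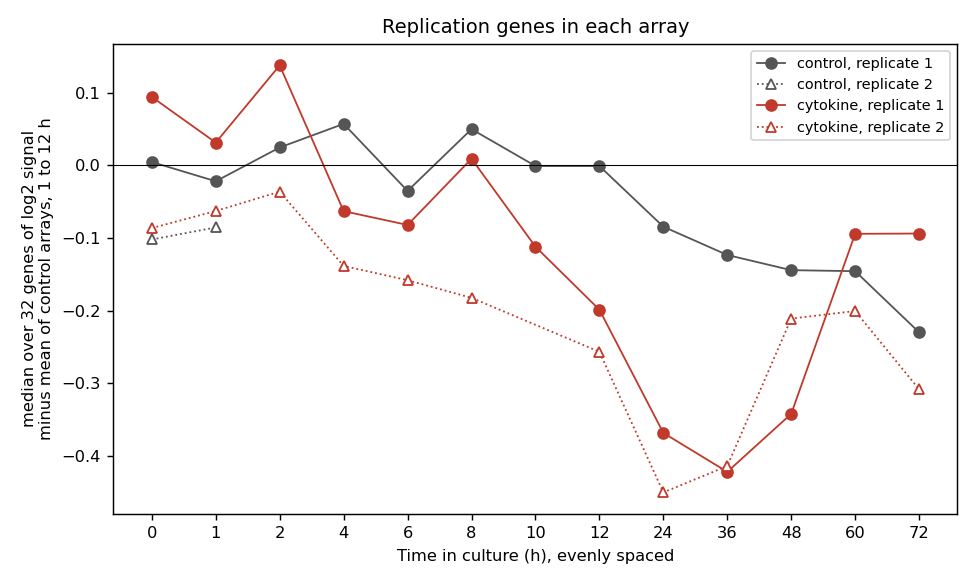
Median over the 32 replication genes of the log2 signal minus the mean of control arrays at 1 to 12 h, for each array against time (evenly spaced). Circles with solid lines are replicate 1 and open triangles with dotted lines replicate 2. Control arrays drift down to -0.23 at 72 h, and cytokine arrays reach their lowest values, -0.37 to -0.45, at 24 and 36 h.

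Other parts of the replication machinery and the cell cycle were read from 3 further lists. Of 42 other replication genes, 8 were called lower and 1 higher at 24 to 36 h, against 2.27% and 2.91% of all genes, with a median of -0.19. Orc1, the large subunit of the origin recognition complex, fell by 0.68 (SE 0.13, limma adjusted p = 0.00175), and Dbf4, which activates the kinase Cdc7 that fires origins, fell by 0.63 (0.0117). Timeless and Clspn, which protect the moving fork, fell by 0.45 (0.00676) and 0.46 (0.0145), and Rpa2, a subunit of the single-strand binding protein RPA, fell by 0.52 (0.0247). Rnaseh2a, a subunit of an enzyme that removes RNA from DNA, was the gene that rose, by 0.40 (0.0241).

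Of 24 regulators of the G1 to S transition, 4 (16.7%) were called lower at 24 to 36 h and 0 higher, against the same 2.27% and 2.91%. Differences in the list ran from -0.78, in a gene not named here, to 0.36. Among the 4, cyclin A2 (Ccna2) fell by 0.72 (limma adjusted p = 0.000209), E2f8, an E2F family repressor, by 0.60 (0.00926) and Skp2, a ubiquitin ligase subunit, by 0.45 (0.0273). Cdkn1a, the cyclin-dependent kinase inhibitor p21, rose by 0.89 at 1 to 4 h (0.00677) and by 1.43 at 6 to 12 h (3.28e-06). It stood at 0.16 (0.787) at 24 to 36 h. Ccnd1, which encodes cyclin D1, differed by 0.14 (0.673) at that time.

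Most mitosis genes fell in this window. At 24 to 36 h 26 of 32 (81.2%) were called lower, against 2.27% of all genes, with a median of -0.64. At 48 to 72 h 7 of 32 (21.9%) were called lower, against 1.33% of all genes, with a median of -0.32. The difference between the lists was not tested. Anln, a contractile ring protein, fell by 1.07 (limma adjusted p = 3.04e-06) and Top2a, a DNA topoisomerase, by 0.87 (0.000334), while the proliferation marker Mki67 stood at -0.74 (0.285). Some beta cell markers fell in the same windows. Of 8, limma called 4 lower at 6 to 12 h (median -0.24), against 4.11% of all genes. At 24 to 36 h it called 2 lower (25%), against 2.27% of all genes, with a median of -0.36. These were Ins2, at -0.51 (limma adjusted p = 0.00392), and Pcsk1, which encodes a proinsulin-processing enzyme, at -1.01 (0.00676). At 48 to 72 h it called 2 lower, with a median of -0.39, against 1.33% of all genes. Markers of other cells were read as well. Of 6 leukocyte, 6 stromal and 4 exocrine genes limma called 0 at 24 to 36 h, with 2, 0 and 1 at an unadjusted p under 0.05, and of 6 other endocrine genes it called Gcg lower (-2.65). The part of these marker lists in the results was not tested. At 72 h the median was -0.19 for mitosis genes and 0.00 for the replication genes.

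**Figure D5:**
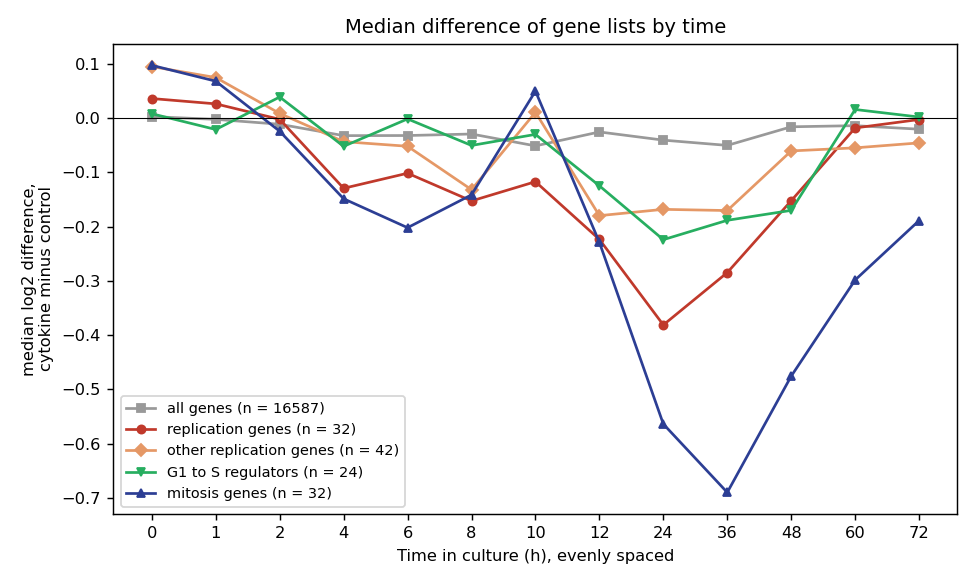
Median cytokine minus control difference in log2 signal at each time (evenly spaced) for 32 replication genes, 42 other replication genes, 24 G1 to S regulators, 32 mitosis genes and all 16587 genes. Replication genes reach -0.38 at 24 h and return to 0.00 at 72 h, while mitosis genes reach -0.69 at 36 h.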

How the data were processed

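The 40 RNA samples were hybridised to Affymetrix rat arrays. The deposited values are log2 signals for 19239 probe sets. How the authors summarised and normalised them is not given in the sources used here. The platform annotation gave 1 symbol to 16592 probe sets and none to 2647. Symbols were updated through RefSeq gene numbers (3326 updated, 139 numbers not found), and the brighter probe set was kept for 5 symbols with several. No array duplicated another (pairwise correlations 0.971 to 0.996), and the number of arrays limits the precision.

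A limma model (limma 3.58.1, R 4.3.3) with a mean for each of 26 groups was fitted to 16587 genes, and differences were averaged over the times of a window. Benjamini-Hochberg adjustment covered all genes, with a threshold of 0.05. The fit was tested on simulated data. The labels do not say whether replicates were separate cultures, so p-values measure the spread between arrays, which may be technical. That spread came from the 12 cytokine times and 2 control times (0 and 1 h) with 2 arrays each. A lone array, as at every control time after 1 h, was assumed to vary like these. Members and lists were chosen with earlier results of these data known. Named genes were all members and, in the further lists, up to 4 called genes with the smallest p per comparison and Cdkn1a, Ccnd1, Orc1, Rpa2 and Mki67; levels are given for the 5 called members with the smallest p and for Pcna, Mcm6, Cdc6, Ccne1, Ccne2, E2f1 and Rfc1, others being chosen after their values were seen. Alternatives were a replicate block, quantile normalization, median centring, a filter on dim genes, another choice of probe set, moderation with a trend and robust to outliers, weighted arrays, additive effects of time and treatment on all arrays or on replicate 1 arrays, and leaving out each array.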

Additional observations from a re-analysis of the deposited data

Results flagged for a closer look

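For several replication genes every cytokine array at 0 h (n = 2) lay above the mean of the 0 h control arrays, while every cytokine array of a later window lay below the control mean of its own time. These opposite directions were noted because they set the 0 h background against the later difference. The difference between 0 h and the later windows was not tested, and the share of all genes with such directions was not counted. At 0 h 8 of 32 replication genes were wholly higher in the cytokine arrays and 1 wholly lower, against 16.2% and 15.5% of all genes. At 24 to 36 h all 32 lay below 0, so the later direction was common to the list.

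Against 6 to 12 h, Pole2 stood at 0.35 and then -0.16, Gins1 at 0.39 and then -0.32, Cdc6 at 0.13 and then -0.39, and Fen1 at 0.27 and then -0.24. Against 24 to 36 h, Pole2 went from 0.35 to -0.54, Gins1 from 0.39 to -0.53, Cdc6 from 0.13 to -0.86 and Fen1 from 0.27 to -0.36. In the same window Mcm7 went from 0.17 to -0.36, Rfc3 from 0.14 to -0.29, Rfc2 from 0.09 to -0.12, Gins3 from 0.08 to -0.35 and Tyms from 0.04 to -0.24. Against 48 to 72 h, Pole2 went from 0.35 to -0.45 and Gins1 from 0.39 to -0.20. For Pole2 the control arrays at 0 h read 6.14 and 6.56, and the cytokine arrays 6.82 and 6.58.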

How the results depend on the processing

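At 24 to 36 h, where 6 replication genes were called lower, the count was 10 with the dimmest genes left out, with trend and robust moderation and with array weights, and 11 in the additive model, and it ranged from 0 to 8 as each of the 40 arrays was left out. At 6 to 12 h the count of 1 lower became 3 with the dimmest genes left out, 2 with trend and robust moderation, array weights or the additive model and 0 in replicate 1 arrays alone, and ranged from 0 to 2 with single arrays left out. The count of 0 higher became 1 (Mcm3) in the additive model and in replicate 1 arrays alone, and ranged from 0 to 1. At 48 to 72 h the count of 1 lower became 0 in replicate 1 arrays alone and ranged from 0 to 1. In the control course, the count of 0 lower became 1 with the dimmest genes left out, 2 in the additive model and 5 in replicate 1 arrays alone. In the difference of courses it ranged from 0 to 1, with 1 without replicate 1 of cytokine 72 h. The cause was not tested. Of all genes, 386 of 11058 were called lower at 24 to 36 h with the dimmest left out. Of 16587, the count was 383 with trend and robust moderation, 553 with array weights and 488 in the additive model. At 6 to 12 h these counts were 774, 713, 771 and 900 in the same order. In the control course they were 241 of 11058 with the dimmest left out and 316 of 16587 in the additive model. All genes called higher at 6 to 12 h numbered 895 in the additive model and 804 in replicate 1 arrays alone. No value changed sign with its call.

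With the replicate number as a replicate block, the counts were 1 higher and 2 lower at 6 to 12 h (3.12% and 6.25%, against 5.61% and 6.23% of all genes), 10 lower at 24 to 36 h (31.2% against 3.29%) and 7 lower in the control course (21.9% against 3.03%). The labels do not tie the numbers to a shared day, so the main fit did not take the numbers to pair the arrays. The differences of replicate 2 minus replicate 1 were nevertheless partly shared between groups. Their correlation ran from -0.172 to 0.432 over 91 pairs of groups, with a median of 0.206 and 68 over 0.1. The counts with the block therefore stand beside those of the main fit.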
